A study of Mus musculus with 8 samples.

Results

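The MHC class II presentation genes are described here in osteoclasts, the multinucleated cells that degrade bone, grown from mice with or without Elmo1. The group holds 7 genes of the 46517 in the deposited table, namely H2-Aa, H2-Ab1, H2-Eb1, H2-DMa, H2-DMb1, Cd74 and Ciita, chosen by name for their role and matched by Ensembl identifier. All 7 were found. Of these, 6 passed the filter for testing, under which at least 4 of the 8 libraries had to reach a normalized count of 10, and Ciita did not.

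RNA was sequenced from osteoclast cultures of 4 Elmo1-/- mice, which lack the cytoskeletal regulator Elmo1 in every cell, and of 4 Elmo1+/- mice, the controls, which keep an intact copy and whose titles call them WT. Marrow came from the femurs of mice of 6 to 8 weeks, and cells that stayed in suspension after 16 h were grown with 10% L929-conditioned medium, a source of M-CSF, and for 7 days with GST-RANKL, the ligand that drives osteoclast formation, at 50 ng/ml. The general culture methods of the study add that attached cells were harvested after 3 days of L929-conditioned medium and replated before RANKL, a step that the labels of these libraries do not mention. Each library of 75 bp paired-end reads came from a different mouse, with between 20905502 and 40846651 reads on genes. By the study's methods each experiment held 2 mice of either genotype, and which mice shared an experiment is not stated. Libraries carried the numbers 1 to 4 in each genotype, and those numbered 1 and 2 stood apart from those numbered 3 and 4 in both genotypes along the first principal component, which held 62.3% of the variance. Values below are therefore also given by these library sets, which were noticed in the data and are not groups of the study. On that component Elmo1-/- library 2 lay in between, at -6.03. Elmo1-/- libraries 3 and 4 were at 26.4 and 24.6, nearer to it than Elmo1-/- library 1, at -52.3. Elmo1 itself stood at a normalized count of 1593 ± 150 (SD, n = 4) in Elmo1+/- and 292 ± 17.6 (SD, n = 4) in Elmo1-/- libraries, with no overlap.

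MHC class II molecules carry peptides from proteins taken up by the cell to the cell surface, where CD4+ T cells read them. H2-Aa and H2-Ab1 encode the alpha and beta chains of the I-A molecule, and H2-Eb1 the beta chain of I-E. Cd74, the invariant chain, fills the peptide groove of new molecules and steers them to endosomes, and H2-DMa and H2-DMb1 form H2-DM, which removes the remnant of Cd74 and helps load peptide. Ciita is the master transcriptional coactivator of the class II genes and binds no DNA itself. It is recruited by factors bound to the S, X and Y boxes of class II promoters. Bone marrow macrophages, the lineage from which osteoclasts arise, are known to raise class II genes in response to interferon gamma.

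The promoters of 3 members held the X and Y boxes in the usual order and spacing, and the stretches that hold them are shown because they are the DNA on which Ciita acts. Sequences and start sites were those of RefSeq (GRCm38.p6), and the window searched was the 250 bases before each start site. The search was for CTNGNAAC, an X box core, and ATTGG, the Y box, on the gene's strand, with 15 to 45 bases from the first base of the X box to the first base of the Y box. The letters of the X box were chosen after the promoters had been seen. Capitals mark the boxes below.
H2-Aa: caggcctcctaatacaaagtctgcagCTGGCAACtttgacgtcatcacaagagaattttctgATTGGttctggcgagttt
H2-Eb1: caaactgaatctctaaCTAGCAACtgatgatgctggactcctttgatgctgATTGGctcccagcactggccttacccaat
H2-DMb1: tttacCTAGTAACtgatgatgctaggctga

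The H2-Aa stretch is chr17:34287854-34287933 on the minus strand, 110 to 31 bases before the start site, and the X box began 84 and the Y box 48 bases before it. The H2-Eb1 stretch is chr17:34305757-34305836 on the plus strand, and its boxes began 94 and 59 bases before the start site. The H2-DMb1 stretch is chr17:34153089-34153118 on the plus strand, of which 30 bases are shown, and its boxes began 97 and 61 bases before the start site, the Y box beyond the stretch shown. The boxes thus lay 36, 35 and 36 bases apart. Of 32851 promoters of all genes in the table, 10.9% held the X box letters, 33.8% the Y box letters and 0.338%, or 111 promoters, the pair in this arrangement. These shares counted a match on either strand, whereas the pair in the members was sought on the gene's strand. The related gene H2-Ob held the pair as well, with the boxes 33 bases apart, and the windows of H2-DMa, H2-DMb2, H2-Oa and H2-Eb2 did not. On the opposite strand the windows of H2-Aa, H2-Eb1 and H2-DMb1 held 0 X boxes, and that of H2-Eb1 held 1 further Y box. No match says only that these letters were not in the window. H2-Ab1 and Ciita had no entry among the promoters, and no promoter of Cd74 was searched.

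The members lie at 3 places in the genome (GENCODE mouse release 21, GRCm38). The H2 genes share chromosome 17, with H2-DMa (ENSMUSG00000037649) at 34119541 to 34139101, H2-DMb1 (ENSMUSG00000079547) at 34153072 to 34160230, H2-Ab1 (ENSMUSG00000073421) at 34257689 to 34269419, H2-Aa (ENSMUSG00000036594) at 34282744 to 34287823 and H2-Eb1 (ENSMUSG00000060586) at 34305867 to 34316674. All of these are on the plus strand but H2-Aa. Cd74 (ENSMUSG00000024610) is on chromosome 18 at 60803848 to 60812652 and Ciita (ENSMUSG00000022504) on chromosome 16 at 10480059 to 10528418, both on the plus strand. Exons of Ciita shared 111 of 8225 bases with Dexi on the opposite strand, and those of Cd74 shared 12 of 1416 bases with Mir5107. H2-DMa overlapped 4 other genes and H2-Eb1 overlapped 1, in each case with no shared exon bases. Of the 75-base windows in a single transcript of H2-DMb1, 19.1%, or 254 of 1330, also occur in transcripts of its neighbour H2-DMb2. Some reads of these genes therefore cannot be told apart.

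Class II transcripts were present in every library, but at modest levels, with Cd74 and H2-DMb1 above the other members. Per kilobase of exon, which allows genes to be compared, the mean normalized count over 8 libraries was 564 ± 222 (SD) for Cd74 and 439 ± 18.8 for H2-DMb1. These levels exceeded those of 72.7% and 67.2% of the 14139 tested genes. H2-Ab1 followed at 136 ± 52.3 per kilobase, H2-DMa at 97.6 ± 17.1, H2-Aa at 71.9 ± 23.6 and H2-Eb1 at 43.9 ± 15.1. The last 4 were above 41%, 34.9%, 30% and 23% of tested genes. Cd74 and H2-DMb1 overlapped in their ranges over libraries, as did H2-Ab1 with H2-DMa and with H2-Aa, H2-DMa with H2-Aa, and H2-Aa with H2-Eb1, while the lowest library of H2-DMb1 at 406 per kilobase exceeded the highest of H2-Ab1 at 226. The order of the lower 4 depends on the exon length used. Over the exons of basic transcripts it is as given, and over all annotated exons, an alternative chosen after seeing the data, H2-DMa averaged 75.5, H2-Ab1 64.2, H2-Eb1 37.7 and H2-Aa 21.3 per kilobase, with Cd74 and H2-DMb1 still the highest at 476 and 367.

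Ciita was close to the limit of detection. It had 12, 10, 4 and 3 reads in the Elmo1+/- libraries 1 to 4 and 3, 5, 6 and 14 reads in the Elmo1-/- libraries 1 to 4. As normalized counts these were 11.04, 9.89, 6.09 and 2.86, and 2.84, 5.99, 5.01 and 10.9. The genotypes overlapped across nearly their whole range, the means were 7.47 ± 3.73 and 6.18 ± 3.40 (SD, n = 4), and Ciita was left out of the main test by the filter. With no filter on low values its log2 fold change was -0.23 (SE 0.47, limma adjusted p = 1.0). Per kilobase Ciita reached 0.83 ± 0.41 (SD, n = 8), a level exceeded by all but 0.0495% of tested genes.

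Other class II genes were lower than the members that passed the filter. H2-DMb2, the second DM beta chain, averaged 16.5 per kilobase and H2-Oa, the alpha chain of the DM inhibitor H2-O, 22.4. H2-Ob, the partner of H2-Oa, had 3 to 11 reads per library and H2-Eb2 had 0 to 4. H2-Ea-ps, annotated as a pseudogene of the I-E alpha chain, had 0 reads in all 8 libraries, where 3 reads per library is the limit that a count of 0 allows. Hence the beta chain of I-E was measured in every library and the alpha chain gene in none.

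**Figure D1:**
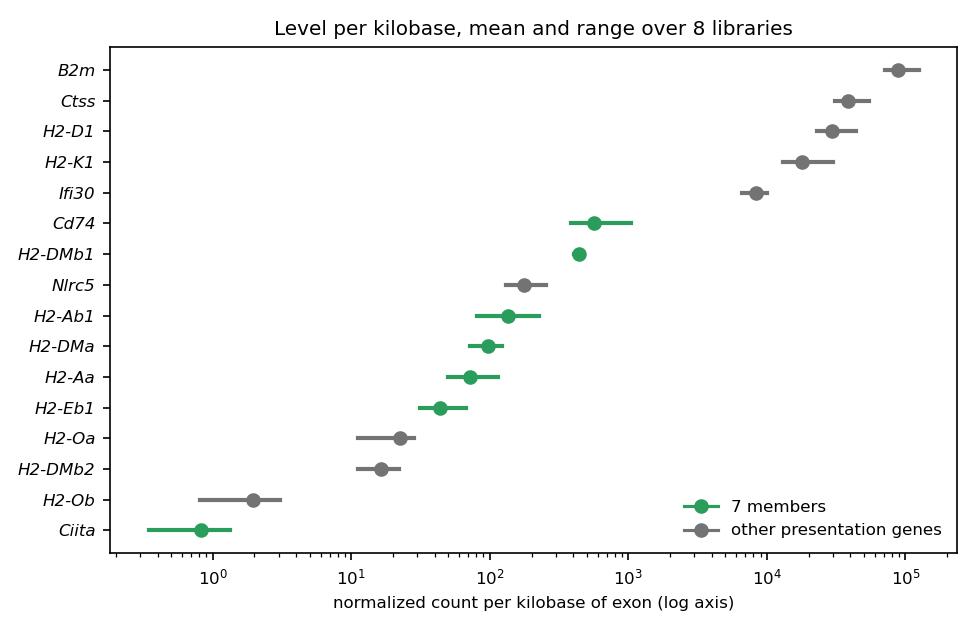
Levels of the 7 members (green) and of other antigen presentation genes (grey) as normalized counts per kilobase of exon on a log axis, with points at the mean and bars from the lowest to the highest of 8 libraries. Cd74 at 564 and H2-DMb1 at 439 lead the members, Ciita is lowest at 0.83, and the class I chains B2m, H2-D1 and H2-K1 stand at 88155, 29394 and 17881.

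The same cells held far more RNA for MHC class I, which displays peptides from inside the cell. B2m, the light chain of class I molecules, averaged 88155 per kilobase, and the heavy chains H2-D1 and H2-K1 averaged 29394 and 17881, levels above 99.6%, 99.3% and 98.9% of tested genes. Nlrc5, the coactivator of class I genes and a relative of Ciita, averaged 177 per kilobase, with a lowest normalized count of 1069 in any library. Proteases that cut Cd74 and antigen in endosomes were abundant as well. Ctss, the main protease for the last step of Cd74 removal, averaged 38283 per kilobase, Ctsl 13443 and Ifi30, the reductase that opens disulfide bonds of antigens, 8336.

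None of the 6 members tested passed the test between genotypes, and for none did the 4 Elmo1-/- values all lie on the same side of the 4 Elmo1+/- values. The test was limma on log2(normalized count + 1) with Benjamini-Hochberg adjustment over 14139 genes, and 0.00707% of them, Elmo1 alone, passed an adjusted p of 0.05. Of the members, 0 passed at an unadjusted p of 0.05, against 0.941% of all tested genes. The quasi-likelihood test of edgeR and the Wald test of DESeq2 on recovered reads also called 0 members. The 2 genotypes did not overlap in 0 members and in 0.941% of all tested genes. The median log2 fold change of the 6 members was -0.0016, beside -0.0031 over all genes tested. In bulk samples fewer cells that express a gene and less RNA per cell cannot be told apart.

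H2-Aa, the I-A alpha chain, stood at normalized counts of 79.1, 129, 77.7 and 59.0 in the Elmo1+/- libraries 1 to 4 and at 114, 62.3, 55.9 and 71.6 in the Elmo1-/- libraries 1 to 4. The highest values were in library 2 of the controls and library 1 of the knockouts, and the genotypes overlapped. With means of 86.1 ± 29.7 and 76.1 ± 26.4 (SD, n = 4), the log2 fold change was -0.17 (SE 0.29, limma adjusted p = 1.0), and its 95% interval ran from 0.565-fold to 1.39-fold.

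H2-Ab1, the I-A beta chain, stood at 215, 200, 136 and 103 in the Elmo1+/- libraries and at 274, 183, 97.7 and 111 in the Elmo1-/- libraries, in the order of their numbers. In either genotype libraries 1 and 2 were high and libraries 3 and 4 low. The genotype means were 163 ± 53.1 and 167 ± 81.0 (SD, n = 4). On the log scale, where each library weighs by its log value, the fold change was -0.03 (SE 0.36, limma adjusted p = 1.0), of opposite sign to the difference of these means, with a 95% interval from 0.557-fold to 1.72-fold.

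H2-Eb1, the I-E beta chain, stood at 63.5, 112, 83.7 and 54.2 in the Elmo1+/- and at 110, 52.7, 55.1 and 56.0 in the Elmo1-/- libraries. Among the knockouts library 1 was far above the other 3, which lay close together, and the controls spread over the whole range between them. The means of 78.3 ± 25.5 and 68.4 ± 27.6 (SD, n = 4) gave a log2 fold change of -0.21 (SE 0.30, limma adjusted p = 1.0) and a 95% interval from 0.541-fold to 1.38-fold.

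Cd74, the invariant chain, stood at 820, 988, 594 and 547 in the Elmo1+/- and at 1489, 711, 601 and 641 in the Elmo1-/- libraries. Knockout library 1 was the highest, and the other 3 knockouts lay inside the control range. The means of 737 ± 205 and 861 ± 421 (SD, n = 4) gave a log2 fold change of 0.16 (SE 0.30, limma adjusted p = 1.0) and a 95% interval from 0.692-fold to 1.80-fold, and without knockout library 1 the log2 fold change was -0.14.

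H2-DMa, the DM alpha chain, stood at 259, 262, 273 and 190 in the Elmo1+/- and at 324, 316, 240 and 218 in the Elmo1-/- libraries. Knockout libraries 1 and 2 exceeded every control, and knockout libraries 3 and 4 lay inside the control range. The means of 246 ± 37.6 and 274 ± 53.7 (SD, n = 4) gave a log2 fold change of 0.15 (SE 0.17, limma adjusted p = 1.0) and a 95% interval from 0.849-fold to 1.45-fold.

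H2-DMb1, the DM beta chain, was the steadiest member. It stood at 603, 569, 636 and 634 in the Elmo1+/- and at 645, 625, 632 and 590 in the Elmo1-/- libraries, so that the highest library was 1.13 times the lowest, while this ratio was 1.70 to 2.81 for the other 5 tested members. The means of 611 ± 31.4 and 623 ± 23.3 (SD, n = 4) gave a log2 fold change of 0.03 (SE 0.07, limma adjusted p = 1.0). Its 95% interval, from 0.914-fold to 1.14-fold, was the narrowest of the 6. For the other members, and the I-A and I-E chains and Cd74 above all, the intervals leave room for changes in either direction that the spread between libraries would hide.

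**Figure D2:**
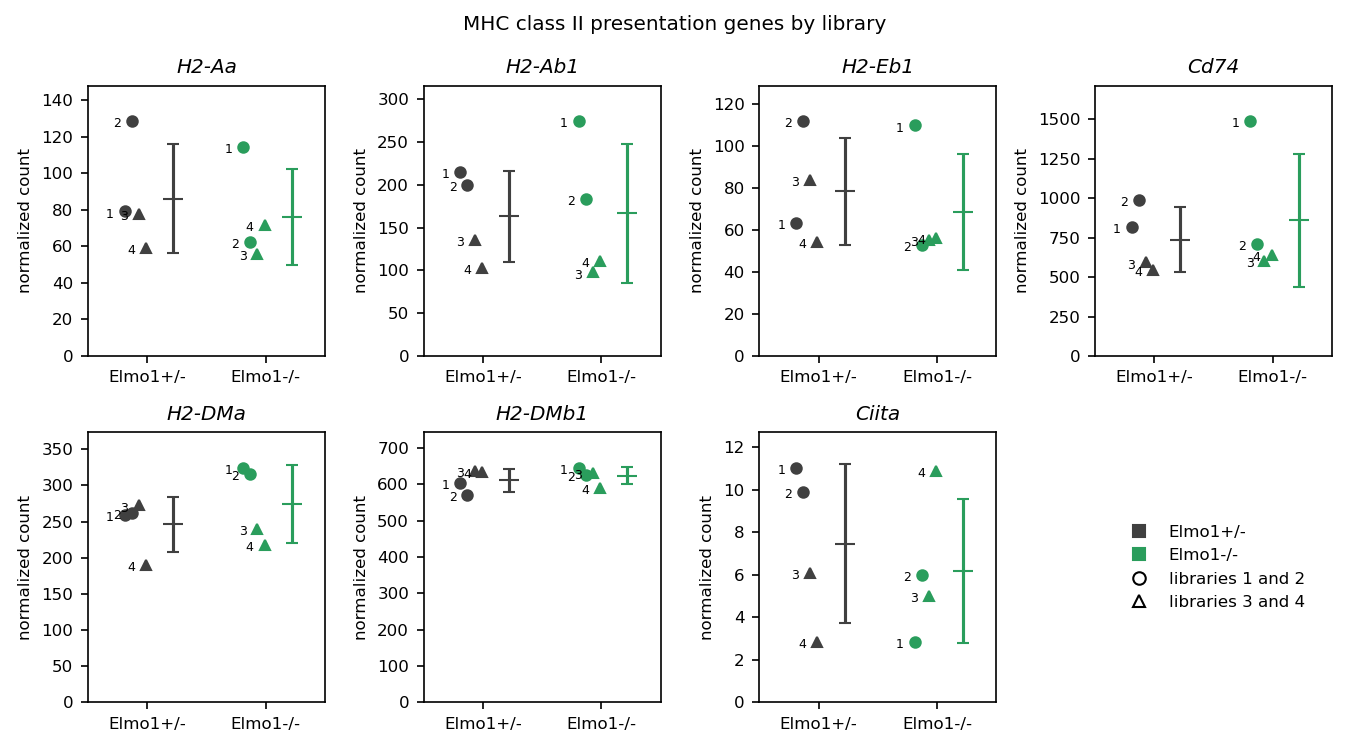
Normalized counts of the 7 members in each library, with the library number beside each point, circles for libraries 1 and 2, triangles for libraries 3 and 4, and the mean ± SD of 4 libraries to the right of each genotype. The genotypes overlap in every panel, and H2-Ab1 and Cd74 are higher in libraries 1 and 2 in both genotypes.

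**Figure D3:**
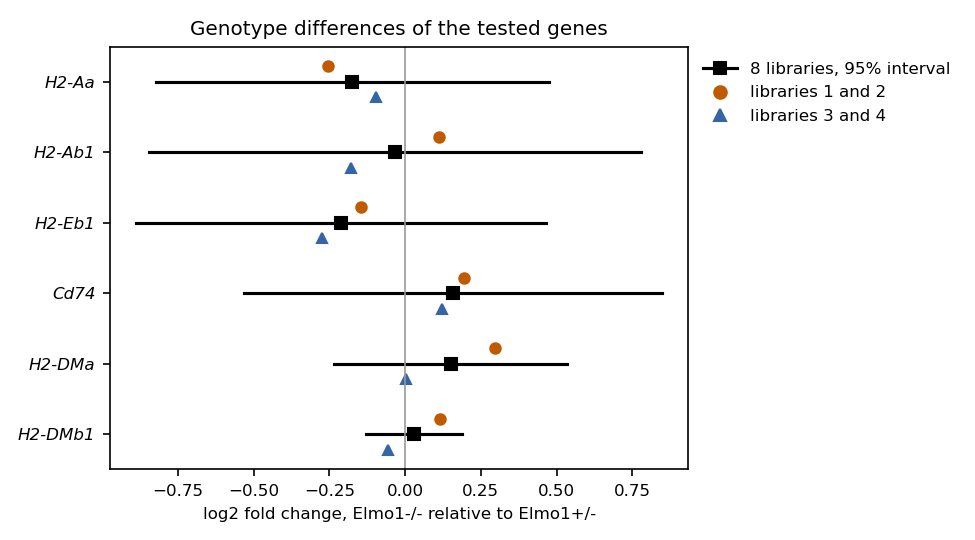
Log2 fold changes of the 6 tested members in Elmo1-/- relative to Elmo1+/- libraries, with squares and 95% intervals over 8 libraries, and the difference within libraries 1 and 2 (circles) and within libraries 3 and 4 (triangles). Every interval spans 0, with H2-DMb1 the narrowest at 0.914-fold to 1.14-fold.

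The genotype difference was then taken within each library set, since the sets stood apart. In libraries 1 and 2 the log2 differences were -0.25 for H2-Aa, 0.11 for H2-Ab1, -0.14 for H2-Eb1, 0.19 for Cd74, 0.30 for H2-DMa and 0.12 for H2-DMb1. In libraries 3 and 4 they were -0.10, -0.18, -0.28, 0.12, 0.00 and -0.06 in the same order. Thus H2-Ab1 and H2-DMb1 differed in sign between the sets and the other 4 did not. The interaction of genotype and library set, that is, the difference between these differences, had a limma adjusted p of 1.0 for each of the 6 members and was called for 0 of 14139 genes (0%), with 378 at an unadjusted p of 0.05. The quasi-likelihood test of edgeR also gave 0, with 393 at an unadjusted p of 0.05.

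The levels of 2 members separated the library sets completely. H2-Ab1 lay between 183 and 274 in the 4 libraries numbered 1 and 2 and between 97.7 and 136 in the 4 numbered 3 and 4, a difference of 0.95 on the log2 scale or 1.94-fold. Cd74 lay between 711 and 1489 and between 547 and 641, a difference of 0.69 or 1.62-fold. Of all tested genes 15.8% had all libraries numbered 1 and 2 above all numbered 3 and 4, beside these 2 of 6 members. No test is given, since the sets were seen in the same values.

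The other members moved less or not at all with the sets. The log2 differences, libraries 1 and 2 minus libraries 3 and 4, were 0.49 for H2-Aa, 0.38 for H2-Eb1 and 0.34 for H2-DMa, each with overlapping sets, and -0.03 for H2-DMb1. The median over the 6 members was 0.44, beside 0.01 over all genes tested. Summed, the 3 chains of I-A and I-E stood at 399 ± 88.4 in libraries 1 and 2 and 240 ± 40.0 in libraries 3 and 4 (SD, n = 4), while H2-DMa and H2-DMb1 together stood at 901 ± 64.9 and 853 ± 45.9.

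Because H2-DMb1 kept its level while H2-Ab1 did not, their ratio per kilobase changed with the sets. H2-DMb1 exceeded H2-Ab1 2.03 to 2.95 times in libraries 1 and 2 and 4.05 to 5.59 times in libraries 3 and 4. H2-DMb1 exceeded its partner H2-DMa 4.63 ± 0.85 times (SD, n = 8), with a range of 3.76 to 4.42 in libraries 1 and 2 and 4.44 to 6.33 in libraries 3 and 4.

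The 2 chains of I-A were not held at a fixed ratio either. H2-Ab1 over H2-Aa was 1.45 to 1.63 in the 4 libraries numbered 3 and 4. In libraries 1 and 2 it was 2.53 and 1.45 for the controls and 2.23 and 2.74 for the knockouts, so that control library 2, with the highest H2-Aa, resembled libraries 3 and 4. H2-Eb1 over H2-Aa varied less, with a ratio of 0.61 ± 0.07 (SD, n = 8) and a range of 0.53 to 0.73. Cd74 exceeded H2-Aa 6.09 to 10.4 times and H2-Ab1 3.26 to 5.27 times. The sizes of these ratios rest on the exon lengths, whereas their relative spread over libraries does not. Over all annotated exons H2-Eb1 over H2-Aa averaged 1.77, so that H2-Eb1 would be the higher, H2-Ab1 over H2-Aa 3.03, Cd74 over H2-Aa 22.4, Cd74 over H2-Ab1 7.59, H2-DMb1 over H2-Ab1 6.504 and H2-DMb1 over H2-DMa 4.99.

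**Figure D4:**
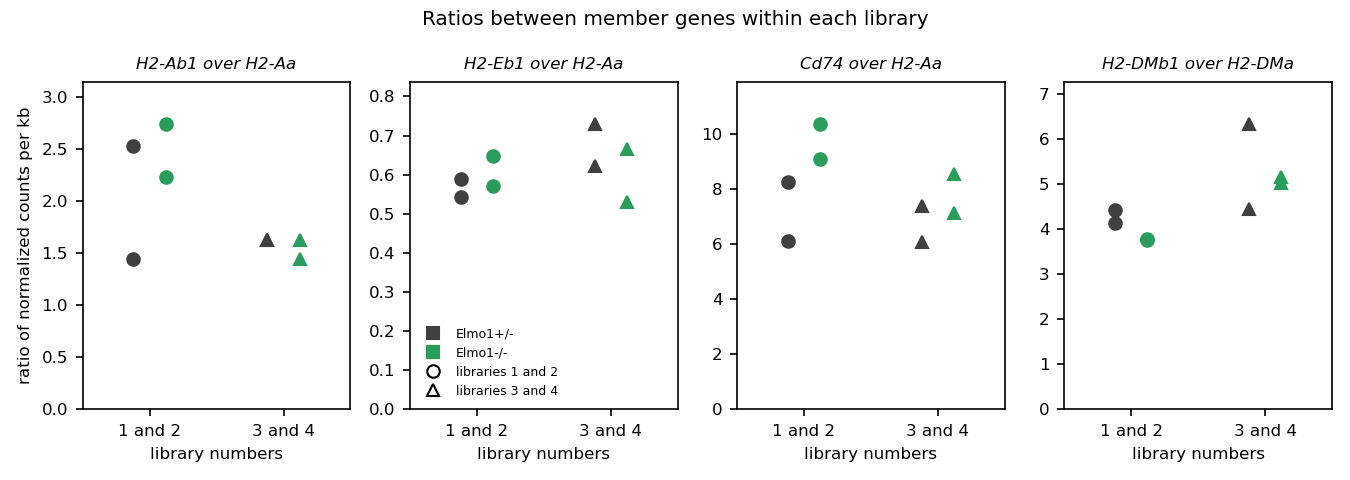
Ratios of normalized counts per kilobase between members within each library, by library set, with black for Elmo1+/- and green for Elmo1-/-. H2-Eb1 over H2-Aa stays within 0.53 to 0.73, whereas H2-Ab1 over H2-Aa spreads from 1.45 to 2.74 in libraries 1 and 2, and H2-DMb1 over H2-DMa is 3.76 to 4.42 there against 4.44 to 6.33 in libraries 3 and 4.

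Markers of several cell types moved with the library sets as well. The 12 osteoclast markers, which include Acp5, Ctsk and Calcr, were each lower in all libraries numbered 1 and 2 than in any numbered 3 and 4, as 18.1% of all tested genes were, and their summed normalized count was 454766 to 698605 against 1040613 to 1186281, so that all libraries carried the defining genes of osteoclasts. Of 8 macrophage markers 4 were higher in all libraries 1 and 2, among them Mrc1, as 15.8% of all tested genes were. The macrophage list sum was 191986 to 225147 against 163508 to 207447. B cells express class II constitutively, and the 8 B cell markers summed to 412 to 615 against 309 to 341. That sum was mainly Cd79b and Cd22, and the defining markers Ms4a1, Pax5 and Fcer2a had a normalized count of at most 3.34 in any library. The 11 dendritic cell markers summed to 352 to 547 against 553 to 675, the opposite direction to H2-Ab1, with Cd209a at 0 in all libraries and Siglech at most at 1.20. That sum was mostly Itgax, with a mean of 332, and the list was mixed, since Zbtb46 was lower in all libraries 1 and 2, at 29.3 to 39.5 against 51.4 to 80.7, and Kmo was higher, at 29.9 to 37.6 against 9.14 to 17.1. The 7 T and NK cell markers, mainly Cd4, summed to 92.0 to 237 against 46.6 to 116, with Cd3g and Ncr1 at 0 in all libraries, the 7 neutrophil markers to 963 to 2492 against 848 to 1207, and the 6 stromal markers to 969 to 1332 against 606 to 1331. The part of these cell types in the difference between the sets was not tested.

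**Figure D5:**
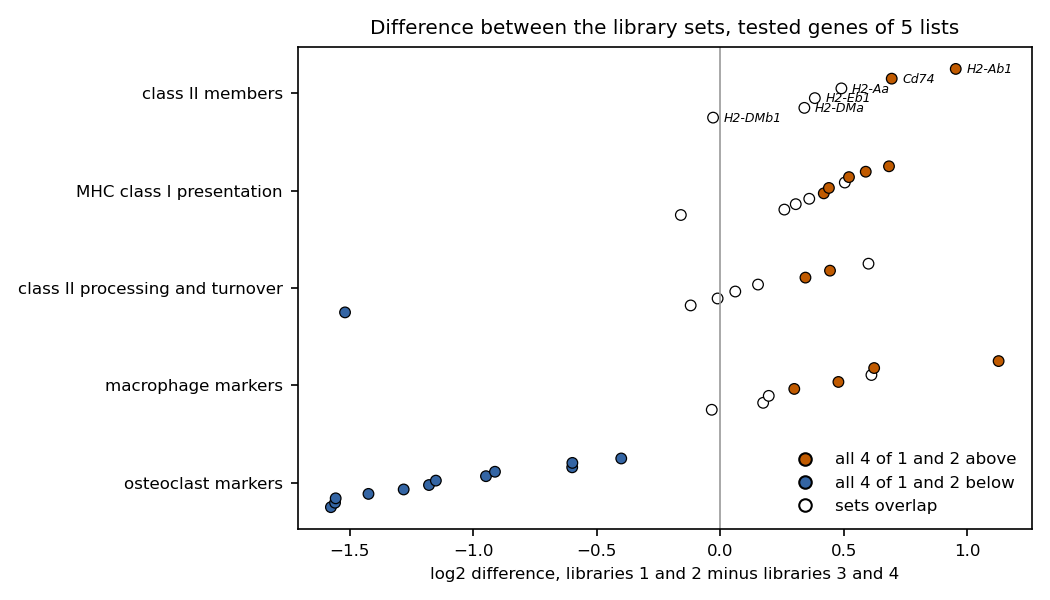
Log2 differences between libraries 1 and 2 and libraries 3 and 4 for the tested genes of 5 lists, with 1 point per gene, orange where all 4 libraries numbered 1 and 2 are above and blue where they are below. H2-Ab1 at 0.95 and Cd74 at 0.69 are orange, as are 5 class I genes and 4 macrophage markers, and all 12 osteoclast markers are blue. Of all tested genes 15.8% are above in this way and 18.1% are below.

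Knockout library 1 led the class II genes. It was the highest of the 8 libraries for 4 of 6 tested members, namely H2-Ab1, Cd74, H2-DMa and H2-DMb1, and was among the highest 2 for all 6. Its 7 members summed to 2960, against 1590 to 2269 in the other libraries. It also had the lowest osteoclast marker sum, 454766, and the highest sums of macrophage markers at 225147, of 7 neutrophil markers at 2492, of B cell markers at 615, of T and NK cell markers at 237 and of 10 class I genes at 284359. Its sums of dendritic cell markers, 387, and of stromal markers, 1245, lay inside the range of the other libraries. Over all tested genes it was the most extreme library on the first principal component, at -52.3, with the others between -26.3 and 31.9. Ciita in knockout library 1, at 3 reads, was no higher than in any other. Whether these sums bear on its class II levels was not tested.

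Other parts of the pathway likewise held no gene called between genotypes, by limma, edgeR or DESeq2. Of the 7 factors that bind the S, X and Y boxes, all were tested and 0 were called in either direction, with 0 at an unadjusted p of 0.05 and a median log2 fold change of 0.09. Nfya, a Y box subunit, was the most abundant at 830 per kilobase, and the extremes were 0.11 for Creb1 and -0.01 for Nfyb. The sum of the 7 factors, made up mainly of Nfya and Creb1, ranged from 5822 to 6792 over the 8 libraries. Each factor was present in every library, at a normalized count of 153 or more. Nfyb was lower in all libraries 1 and 2, at 441 to 499 against 509 to 564, as 18.1% of all tested genes were.

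Among 11 regulators of Ciita and genes of the interferon gamma path, 9 were tested and 0 were called, with a median log2 fold change of 0.08. Spi1, the myeloid factor PU.1, was the most abundant at 6770 per kilobase and had the largest negative value, -0.04. Ifng itself had a normalized count of at most 1.67 in any library, and Irf4 of at most 6.44. Ifngr1, a receptor chain for interferon gamma, and Irf8 were higher in all libraries 1 and 2 than in libraries 3 and 4, at 3466 to 5853 against 2270 to 2717 and at 3396 to 4375 against 2374 to 2636. Spi1, Jak1 and Prdm1, a repressor of Ciita, were lower in all libraries 1 and 2, with Prdm1 at 622 to 1148 against 1199 to 1606. The median difference of the list between the sets was -0.03. Of all tested genes 15.8% were higher in all libraries 1 and 2 and 18.1% were lower.

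The 8 genes of class II processing and turnover, all tested, gave 0 calls, 0 genes at an unadjusted p of 0.05 and a median log2 fold change of 0.00. Ctss had the largest positive value, 0.13 (SE 0.18), and Cd83, which protects class II from March1, the largest negative, -0.44 (SE 0.54, limma adjusted p = 1.0). Cd83 was lower in all libraries 1 and 2, at 102 to 178 against 292 to 487 in libraries 3 and 4, as 18.1% of all tested genes were. Ctss and Ctsl were higher in all libraries 1 and 2, as 15.8% of all tested genes were. Ctss stood at 54242 to 74522 against 41873 to 47946, and Ctsl at 80329 to 105983 against 70235 to 75686. For the rest of the list the sets overlapped.

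Of 6 co-stimulatory ligands, which T cells need beside the class II signal, 5 were tested and 0 were called, with 0 at an unadjusted p of 0.05 and a median log2 fold change of -0.05. Cd274, the inhibitory ligand PD-L1, was the most abundant at 1406 per kilobase. Cd40 had the largest positive value, 0.05, and Icosl the largest negative, -0.21. Of the other class II genes, 2 of 5 were tested and 0 were called or had an unadjusted p under 0.05, with H2-Oa at 0.43 (SE 0.26) and H2-DMb2 at -0.22 (SE 0.24), both with a limma adjusted p of 1.0.

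The 10 class I presentation genes were all tested, 0 were called or had an unadjusted p under 0.05, and all 10 log2 fold changes were above 0, with a median of 0.12. They ran from 0.00 for H2-D1 to 0.28 (SE 0.19) for Tap1, the peptide transporter subunit. The 6 class II members instead had 3 values above and 3 below 0. The summed count of the 10 class I genes, mainly B2m, H2-D1 and H2-K1, was 284359 in Elmo1-/- library 1. It was 151635 to 175318 in Elmo1-/- libraries 2 to 4 and 151368 to 223867 in the controls. How far the class I signs rest on Elmo1-/- library 1 was not tested. Across the library sets 5 class I genes, among them B2m, H2-D1 and H2-K1, were higher in all libraries numbered 1 and 2. So were 15.8% of all tested genes. The list's median difference of 0.43 was close to the 0.44 of the class II members.

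Outside these lists, the genes most like the members over the 8 libraries were Ndor1, Cd300a, Ms4a7, Gorasp1 and Phyhd1. Likeness was Pearson's r with the mean z-score of the 6 tested members, between 0.968 for Phyhd1 and 0.981 for Ndor1, given as a description over 8 libraries that share the separation into sets. Ms4a7, a membrane protein of macrophages, ran from 8867 to 19526, with the highest value in knockout library 1. The members' own r with that mean was 0.81 to 0.92 for the others and 0.10 for H2-DMb1.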

How the data were processed

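Osteoclast mRNA of 4 Elmo1-/- and 4 Elmo1+/- mice was sequenced on an Illumina NextSeq from TruSeq libraries, 1 library per mouse, with genotypes taken from the genotype labels. The submitters' processing notes name FastQC, STAR, featureCounts and DESeq2, without versions or roles. Their genome build was not given in the sources used here, nor was the annotation. The values the authors deposited are a normalized signal, each gene's read count over a size factor that is fixed within a library. The deposited table also holds the authors' own comparison (a mean, fold change, standard error, statistic and p-values), which was not used. There were 0 unused columns of per-sample values. Counting by strand is not stated, so that reads of overlapping antisense genes cannot be told apart.

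Undoing the size factors gave read numbers that were whole, to within 0.01 of a read, for 100% of values. Symbols, positions and exon lengths (of basic transcripts, with all annotated exons as an alternative added after seeing the data) came from GENCODE mouse release 21, which named 46005 of 46517 identifiers and left 512 unnamed. The main test was limma 3.58.1 (trend, robust) in R 4.3.3 on log2(normalized count + 1), whose fold changes understate those of low genes, where 4 or more libraries reached a normalized count of 10. P-values were adjusted by Benjamini-Hochberg over all genes tested, with a threshold of 0.05. Alternatives were edgeR 4.0.16 and DESeq2 1.42.0 on the recovered reads, library totals and TMM scaling, pseudocounts of 0.5 and 8, no filter, a minimum of 50, leaving out each library, the replicate number as a block, the library set as a term, and each set alone. Scripts in R and in Python 3.11.15 (pandas 2.3.3, numpy 2.4.6, matplotlib 3.10.9) were tested on simulated data.

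No pair of libraries of a genotype was a copy, with a chi-square of their reads between 8.72 and 190 per gene. Deviations of same-numbered libraries from their genotype means correlated across genes at 0.703, 0.156, 0.598 and 0.520, each over 0.1, which was the rule for taking same-numbered libraries as pairs. Differently numbered libraries of the same set correlated at 0.0259 to 0.691, so that the numbers carry little beyond the sets. What the numbers stand for is not stated.

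Genes named were all members, Elmo1, in each pathway list the most abundant gene and the largest positive and negative log2 fold change, the 5 genes most like the members, and marker lists whose sum moved with a member. Other genes (Nlrc5, Ifi30, Ctsl, Ifng, Irf4, Irf8, Ifngr1, Prdm1, Jak1 and the class I heavy chains) were named after their values were seen. Some genes of the lists are not reported here by name. The members and lists were chosen with earlier results of these data known.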

Additional observations from a re-analysis of the deposited data

Results flagged for a closer look

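In each genotype, the highest and lowest of 4 libraries were compared with the rest, for values that included those of members and the marker sums. Over the 38 groups of 4 examined, chance gives about 1 in 20, or 1.9, and 4 stood out. H2-Eb1 in Elmo1-/- library 1 was 110, with a gap to the next library of 0.94 of the group's range. Cd74 in the same library was 1489 (0.88 of the range), and so was the sum of neutrophil markers at 2492 (0.84), so that 3 of the 4 came from 1 library. H2-DMa in Elmo1+/- library 4 was 190 (0.84 of the range), below the other 3 controls.

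The genotype difference of H2-DMb1 pointed opposite ways in the library sets. Among libraries 1 and 2 both Elmo1-/- values were above both Elmo1+/- values, a log2 difference of 0.12, and among libraries 3 and 4 both were below, a difference of -0.06. The difference between these was -0.17 (SE 0.13), and the limma interaction test gave an adjusted p of 1.0.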

How the results depend on the processing

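No member was called between genotypes under any alternative, and the lowest adjusted p of a member was 0.936, without Elmo1-/- library 1. The number of genes called over the whole table was 1, and it was 2 with DESeq2 and 1 to 2 when each library was left out in turn. With the replicate number as a block, 1 gene and 0 members were called, and the pairing changed no call. The interaction of genotype and library set gave 0 genes, and 0 to 239 when a library was left out, with 181 without Elmo1-/- library 1 and 239 without Elmo1-/- library 2. The cause was not tested.

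Of 120 log2 fold changes of the members under alternatives, 11 changed sign, with no call in either direction. H2-Ab1 (-0.03) became 0.025 with DESeq2, 0.020 with edgeR and 0.11 in libraries 1 and 2 alone, and ran from -0.31 to 0.18 when a library was left out, with 0.12 and 0.08 without control libraries 1 and 2 and 0.18 and 0.12 without knockout libraries 3 and 4. H2-Aa ran from -0.39 to 0.036, the latter without control library 2. H2-DMb1 became -0.056 in libraries 3 and 4 alone and ran from -0.0037, without control library 2, to 0.055. Cd74 ran from -0.14, without knockout library 1, to 0.31. Leaving out a library kept H2-Ab1 and Cd74 higher in libraries 1 and 2, by 0.84 to 1.05 and 0.48 to 0.84 on the log2 scale. Depth limits Ciita, at 3 to 14 reads per library, and the spread between libraries limits the other members.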
